A study of Mus musculus with 42 samples.

Results

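The Zfp genes are the mouse genes named as zinc finger proteins by number. Most of their products carry C2H2 zinc fingers, small zinc-binding folds that read DNA bases in tandem, and many also carry a KRAB domain, which recruits the co-repressor TRIM28 and with it heterochromatin to the bound site. KRAB zinc finger genes sit in clusters of near copies and many of their products silence transposable elements or guard imprinted loci. The members were all genes in the RNA-seq tables whose symbol is Zfp followed only by digits, leaving out Zfp36, which encodes a CCCH protein of another kind. This gave 308 of 12364 genes. In 3′READS, which counts reads at the poly(A) site (PAS), the same genes were followed through the PASs within their mm9 span or up to 4000 nt downstream before the next gene, and 290 of them had a PAS, of 14608 genes with one. These held 1296 of 64218 PASs.

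The study asked how polyadenylation and gene expression change under arsenic stress and in the recovery from it, in 42 mouse cell line libraries. NIH3T3 fibroblasts were left untreated (NT), exposed to sodium arsenite (250 µM, 1 h; AS), or exposed and then returned to normal medium for 4, 8, 12 or 24 h (RC4, RC8, RC12, RC24). RNA-seq covered NT (2 libraries), AS (1) and RC4 (1), and 3′READS of total RNA covered NT (3), AS (3) and each recovery time (1). Newly made RNA was taken from cells given 50 µM 4-thiouridine (4sU) for the last 1 h, split into the labelled fraction (4sU) and the unlabelled flow-through (Ft), with 2 NT, 1 AS and 1 RC4 library of each. RNA bound by TIA1, a U-rich RNA binding protein of stress granules, was pulled down from NT and AS cells beside the cytoplasmic input (2 libraries of each). C2C12 cells were studied as proliferating myoblasts (MB) and differentiated myotubes (MT), with cytoplasmic RNA from NT (2), AS (1) and RC4 (1) of each state and total RNA of both states (2 each). The second NT library of the RNA-seq, fraction and C2C12 cytoplasmic sets was collected with the 4 h sample, both NT libraries served as the replicates, and where a condition had 1 library the spread came from the replicated groups alone. Nothing in the labels says that replicates were separate cultures, so p-values measure the spread between these libraries.

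Library totals ran from 1048335 to 6974664 PAS reads in 3′READS and from 17136953 to 25193331 reads in RNA-seq. The RNA-seq library of RC4 stood apart in its median ratio factor, 0.662 against 1.13 to 1.16 in the other 3. All 6 fibroblast markers had reads in every group, C2C12 myotube libraries had all 7 myotube markers, and the 4 myoblast markers had no read in any NIH3T3 3′READS library. Other sums ran against the lists. The myoblast markers took 331 to 339 reads per 1000000 in MB total RNA and 1385 to 1528 in MT total RNA. The fibroblast markers took 10468.7 to 10831.3 in MB total RNA, 14516.5 to 17059.2 in MT total RNA and 2875 to 7242 in NT total RNA of NIH3T3. A test here is edgeR's quasi-likelihood test on reads per gene, with Benjamini-Hochberg adjustment over all genes tested, and "called" means an adjusted p under 0.05. Only genes with a mean of at least 10 reads were tested, and 7 of the 308 members fell below that in RNA-seq. Values in single libraries are reads per 1000000 normalized gene reads (RPM below), with the median ratio factor of the library applied. A gene in RNA-seq, or a PAS in 3′READS, with under 5 reads in a library is not listed in its file. A fold against a group with no listed read is therefore computed at 5 reads per library and given as "at least". This is a lower bound in RNA-seq. In 3′READS an unlisted gene can hold more than 5 reads over several PASs. There "at least" holds only if its unlisted PASs together held at most 5 reads per library.

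A protein could be read for 305 members. Of these, 243 (79.7%) held 6 or more C2H2 fingers, 53 held 1 to 5 and 9 none by the pattern used, with a median of 10 fingers and an interquartile range of 7 to 14. A KRAB-like stretch was found in 151 (49.5%). Chromosome 7 carried 81 members, chromosome 17 carried 38, chromosome 13 carried 29 and chromosome 8 carried 21. Their coding sequence was poorer in G and C than that of all genes listed (median 48.0% against 52.8%), while their median 3′UTR was close to the median of all genes (933 nt against 863.5 nt). Some members share runs of letters, which can matter for reads that cannot be placed uniquely. The 18 nt most often shared, shown because they are the coding letters of the linker that joins neighbouring fingers, occurred 91 times in 45 of the 305 members (14.8%) and in 12 of 11041 other genes (0.109%).
finger linker: TCATACTGGAGAGAAACC
It was found in 37 of 151 KRAB-like members (24.5%) and in 8 of the 154 others (5.19%), with the most copies, 6, in Zfp52. Values of members in such families are uncertain to the extent that reads were lost or misplaced between copies, which was not measured.

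The Zfp messages were scarce. Over the coding length, the median member stood at 5.38 RPKM in untreated NIH3T3 cells (interquartile range 2.27 to 12.0), against 14.3 RPKM for all genes, and 249 of 305 members (81.6%) lay below the median of all genes. The highest were Zfp207, a spindle and kinetochore protein that stabilizes BUB3, at 157 ± 13.7 RPKM (SD, n = 2), and Zfp91, an E3 ubiquitin ligase, at 124 ± 11.6 RPKM (SD, n = 2). Zfp622, the counterpart of a yeast factor for the 60S ribosomal subunit, followed at 101 ± 4.68 RPKM (SD, n = 2). The gap between Zfp207 and Zfp91 was larger than the sum of their SDs, while the next in order, Zfp664 (90.6 ± 4.94 RPKM) and Zfp706 (84.4 ± 5.72 RPKM), lay within theirs. Zfp42, a marker of pluripotent cells, and Zfp423, a preadipocyte factor, were not listed in the RNA-seq tables.

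All members together took 6177 and 6785 reads per 1000000 gene reads of RNA-seq in NT, 7462 in AS and 4272 in RC4. In the labelled fraction they took 13408 and 13098 in NT, 11234 in AS and 12300 in RC4, and in the flow-through 4716 and 4993 in NT, 5849 in AS and 4623 in RC4. The 4sU libraries were all above the Ft libraries, with no overlap in any condition.

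**Figure D1:**
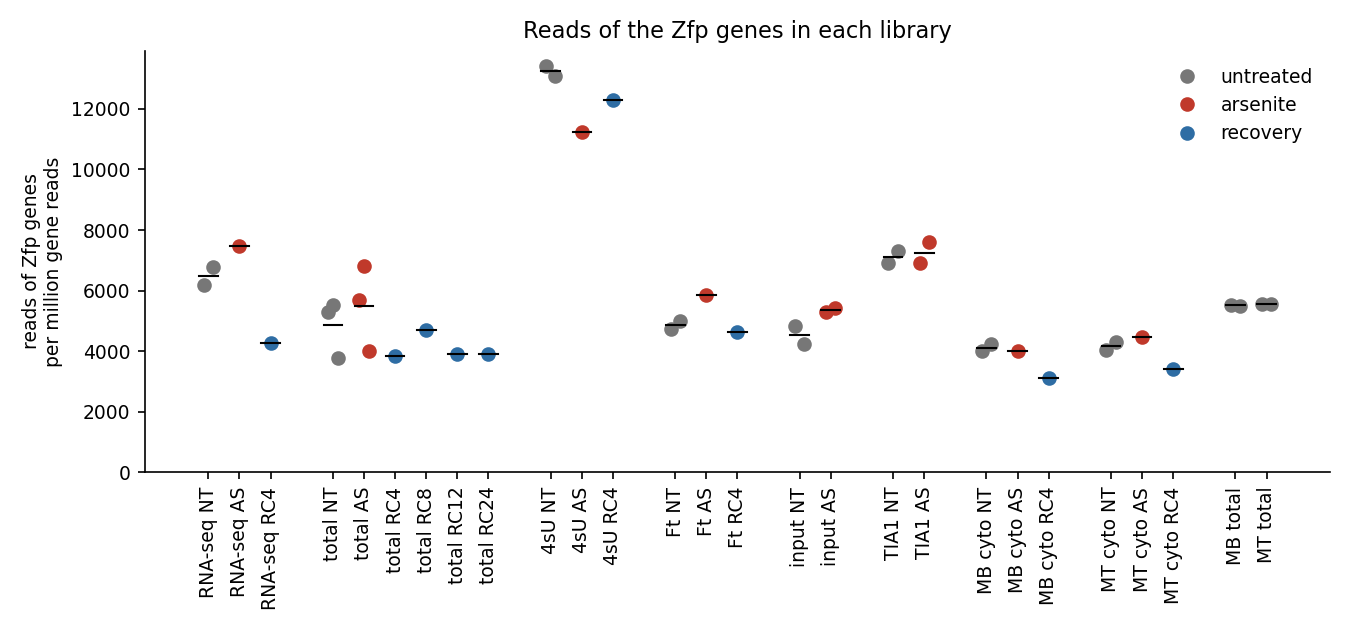
Reads per 1000000 gene reads that fell in Zfp genes (y axis) in each library, by group (x axis). Points are libraries, coloured as untreated, arsenite or recovery, and bars are group means. The 4 libraries of 4sU RNA lie between 11234 and 13408 and all other libraries lie at or below 7588.

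The comparison of old with new RNA is where the family stood farthest from the other genes. The ratio Ft/4sU sets older RNA against RNA made in the last hour, which is labelled. The study takes it as RNA stability after an adjustment for the uridines of each transcript, and the values and calls here are unadjusted unless stated. Each fraction was scaled to its own genes, so the ratio places a gene relative to the median gene and gives no lifetime. In untreated cells 151 of the 233 members tested were called lower in Ft (64.8%, against 26.5% of the 9908 genes tested) and 7 were called higher (3%, against 22.2%). The median member was at a log2(Ft/4sU) of -1.53, the interquartile range was -2.22 to -0.78, the median of all genes was -0.06, and 209 of 233 members lay below the latter. With members unlisted in one fraction set at 5 reads per library, the difference between the 2 medians was -1.45 in place of -1.47. Adjusting the log2 ratios for uridines gave a difference of -1.35. DESeq2 called 104 members lower and 2 higher (15.8% and 12.3% of all genes).

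KRAB-like members lay lowest, with a median log2(Ft/4sU) of -1.91 and 85 of 107 called lower and none higher. The members without a KRAB-like stretch had a median of -1.21, with 66 of 126 called lower and 7 higher. By finger number the medians were -1.80 with 6 or more fingers (130 of 186 lower, 1 higher) and -0.79 with 1 to 5 (17 of 42 lower, 6 higher). The other zinc finger families were also low, with a median of -1.69 for Zbtb genes (14 of 23 called lower, none higher) and -1.39 for Zscan and Zkscan genes (8 of 11 lower, none higher). The co-repressors that KRAB proteins work through were not: the 17 tested of the list had a median of -0.14, with 3 called higher and 5 lower. Between chromosomes the member medians were -1.43 on 7, -2.07 on 17, -2.28 on 13, -1.53 on 8 and -1.42 on the rest.

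Zfp281, a repressor of Nanog in embryonic stem cells, had 295 and 250 RPM in the NT labelled fraction and 36.1 and 31.2 RPM in the flow-through. Both flow-through values were lower than both labelled values by a wide margin, a log2 difference of -3.02 (SE 0.20, adjusted p = 4.52e-06). Its closest relative Zfp148, which binds GC-rich promoters, had 146 and 157 RPM against 42.5 and 36.9 RPM, a log2 difference of -1.94 (SE 0.19, adjusted p = 2.33e-05). Zfp597 had 194 and 159 RPM against 17.1 and 22.6 RPM (-3.14, SE 0.22, adjusted p = 4.79e-06). In all of these genes the fractions did not overlap.

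The 4 lowest called members by fitted value had no listed read in either Ft library of NT. Zfp595, a KRAB-like gene with 18 fingers, had 24.1 and 19.7 RPM in 4sU and was at least 12.6-fold lower in Ft. Zfp72 was at least 7.21-fold lower, Zfp418 at least 4.87-fold lower and Zfp382 at least 3.65-fold lower. Zfp809, which silences retroviral DNA through TRIM28, had 109 and 86.8 RPM in 4sU and 35.7 and 32.8 RPM in Ft, a log2 difference of -1.51 (SE 0.21, adjusted p = 0.000183). Zfp91 was lower as well (70.7 and 60.9 RPM against 14.4 and 13.1 RPM, log2 difference -2.25, SE 0.26, adjusted p = 5.4e-05).

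Few members went the other way. Zfp593, the counterpart of a yeast factor for the export of the large ribosomal subunit, had 84.2 and 64.7 RPM in 4sU and 175 and 167 RPM in Ft, a log2 difference of 1.21 (SE 0.19, adjusted p = 0.000355). Zfp414 followed with a log2 difference of 1.15 (SE 0.23, adjusted p = 0.0017), Zfp580 with 1.10 (SE 0.32, adjusted p = 0.0133) and Zfp428 with 0.92 (SE 0.34, adjusted p = 0.0415). The abundant Zfp207 (290 and 300 RPM in 4sU, 255 and 233 RPM in Ft) was at -0.28 (SE 0.16, adjusted p = 0.189), and Zfp598, the ligase that marks collided ribosomes, at 0.41 (SE 0.18, adjusted p = 0.0778), neither past the threshold.

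**Figure D2:**
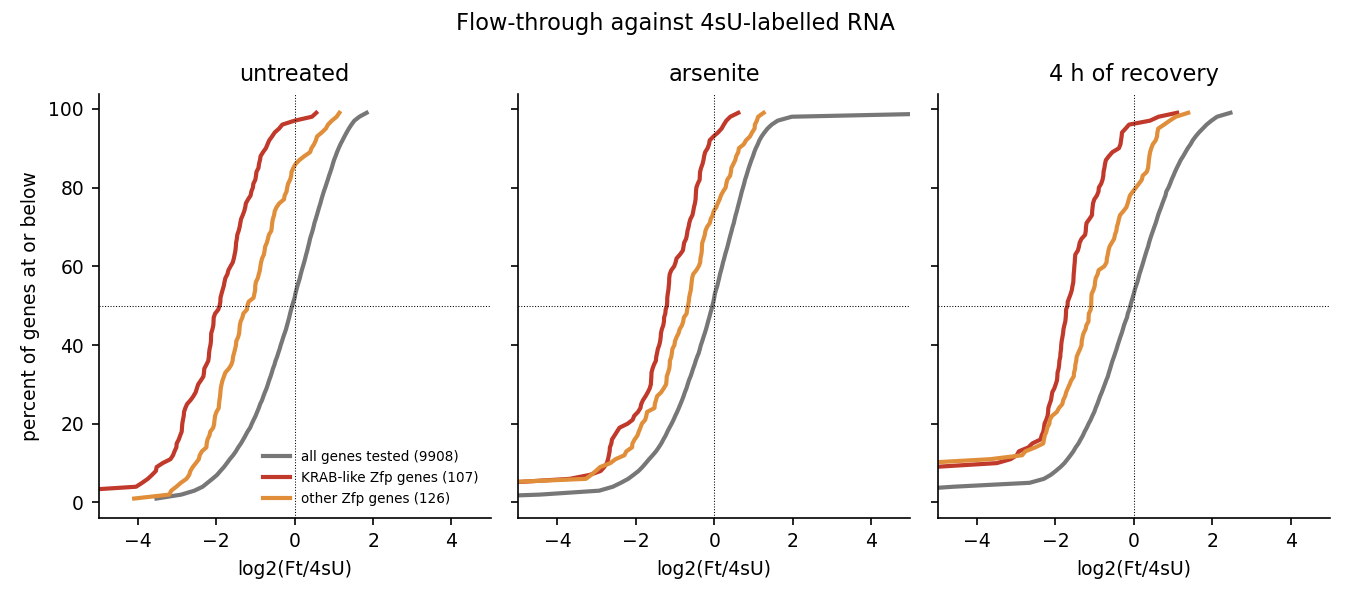
Cumulative distribution of log2(Ft/4sU) (x axis) in untreated cells, under arsenite and at 4 h of recovery, as the percent of genes at or below each value (y axis). Lines are all 9908 genes tested, the 107 KRAB-like Zfp genes and the 126 others. The untreated medians are -0.06, -1.91 and -1.21, and the flat ends of some lines come from genes with no listed read in a fraction.

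The reads behind these ratios came from few PASs per gene. The sites below are the main PASs of genes at both ends of the range, each shown as the last 30 nt of the transcript in mm9 up to the site, with the poly(A) signal in capitals. Zfp281 at chr1:138526590-138526619 (plus strand), Zfp597 at chr16:3861547-3861576 (minus strand) and Zfp148 at chr16:33502311-33502340 (plus strand) were low in Ft, and Zfp593 at chr4:133800564-133800593 (minus strand) was high.
Zfp281: tactaccAATAAAagtcctgttaatcacaa
Zfp597: atttatcatccAATAAAtgttgtgatgaca
Zfp148: cagccAATAAAgaaaaccttgttgttgaaa
Zfp593: ttctgcccaaAATAAAggacctggacaaga
All 4 hold the canonical AATAAA. Over the family 41.8% of PASs had AATAAA and 16.0% had ATTAAA within 45 nt, against 37.7% and 14.1% of all PASs. Members had 4.47 PASs per gene (all genes 4.40). At least 2 PASs in the last annotated exon or past it were found in 218 of 290 (75.2%), against 60.2% of all genes. The last exon can hold coding sequence, so these PASs are not all in the 3′UTR. All genes with PASs include long non-coding genes and genes not listed in RNA-seq, while members had to be listed there. The part of these differences that comes from this was not tested.

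Sequence features followed the ratio weakly. Across 205 members, log2(Ft/4sU) in NT correlated with the percent of uridines in the 3′UTR (Pearson's r -0.34, Spearman's rho -0.40), and across 8969 genes the values were -0.23 and -0.25. These are correlations across genes of the same libraries, and genes are not independent replicates. The members' 3′UTRs were not unusual in this respect, at a median of 29.5% uridines against 29.2% for all genes and 1.67 ATTTA motifs per kb against 1.31, while TTTT runs stood at 11.3 per kb against 12.2.

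Under arsenite 71 of 233 members were called lower in Ft than in 4sU (30.5%, against 17% of all genes) and 3 higher (1.29%, against 8.85%), and at 4 h of recovery 108 were lower (46.4%, against 18.1%) and 5 higher (2.15%, against 16.8%). Taking the 4sU and Ft libraries of the same culture as a block gave 7 higher and 106 lower under arsenite (17.7% and 24% of all genes). DESeq2 called 22 lower and 1 higher under arsenite (8.64% and 3.1% of all genes) and 42 lower and 2 higher in recovery (6.5% and 8.72%). The member median less that of all genes was -0.94 under arsenite and -1.33 in recovery, and -0.68 and -1.13 after the adjustment for uridines. No Ft read was listed for 13 members under arsenite and 21 in recovery. Members listed in both fractions gave 65 lower and 3 higher of 220 under arsenite, and 92 lower and 4 higher of 207 in recovery. For these the difference of medians was -0.82 and -1.15, against -1.44 for members listed in both fractions of NT. Of the 71 lower under arsenite, 67 (94.4%) were among the 151 lower in NT, of which they made up 44.4%. Of the 108 lower in recovery, 99 (91.7%) were among the 151, of which they made up 65.6%. Of all 233 tested members 64.8% were among the 151, and the overlap over all genes was not computed. The ratio itself was less negative under arsenite than in NT, by 0.55 in the median relative to all genes, and 171 of 233 members lay above the median change of all genes. No member and no other gene was called for this interaction by edgeR (0% of 9908 in either direction), with 40 members higher and 5 lower at an unadjusted p under 0.05 and none called by DESeq2. Without Ft NT replicate 1 or 2, 6 and 7 members were called, all higher (0.422% and 0.434% of all genes). With the culture as a block 27 members were called higher (1.97% of all genes) and 1 lower (3.49%). For recovery less NT the difference of medians was 0.15, edgeR called none (0% of 9908), 25 members were higher and 11 lower at an unadjusted p under 0.05, DESeq2 called none, leaving out Ft NT replicate 1 or 2 gave 4 higher and 2 lower (0.543% and 0.653% of all genes) and 2 of each (0.394% and 0.293%), and the block gave 19 higher and 6 lower (6.7% and 3.04%).

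Both fractions were also compared with their own NT libraries, which the 2 conditions share. In old RNA under arsenite the member median lay 0.42 above that of all genes, and 2 members were called higher (0.858%, against 0.585% of all genes) and none lower (0.424% of all genes). At an unadjusted p under 0.05, 50 members were higher and 10 lower, and DESeq2 called 1 higher and none lower. Without Ft NT replicate 1, 12 members were called higher and 2 lower (1.32% and 1.18% of all genes), and without replicate 2, 17 higher and none lower (1.37% and 1.3%). The 2 calls were Zfp563 (log2 change 2.20, SE 0.44, adjusted p = 0.0409) and Zfp715 (1.19, SE 0.23, adjusted p = 0.0349), named here because they are the only calls. The KRAB-like median was 0.63 and that of the others 0.15. In new RNA under arsenite the member median lay 0.19 below that of all genes, with 4 called higher (1.72%, against 3.09%) and 6 lower (2.58%, against 1.96%). Scaling to library totals, which moves the median of all genes to -0.18, turned this split into 2 higher and 15 lower. Counts under library totals, here and below, include that shift of all genes. They are given without the share of all genes and are no result about the family. Without 4sU NT replicate 1, 3 members were called higher and 3 lower (2.42% and 1.36% of all genes), and DESeq2 called none higher and 1 lower (1.82% and 0.888%).

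Of the members called in new RNA under arsenite Zfp367 was the highest, tied to 2 decimals with Zfp689. It had 48.6 and 37.3 RPM in NT and 134 RPM in AS, a log2 change of 1.65 (SE 0.29, adjusted p = 0.00854). The AS value lay far above both NT values, and at RC4 it was back at 36.3 RPM. Zfp689 rose by the same 1.65 (adjusted p = 0.0303) and Zfp248 by 1.09 (adjusted p = 0.0473) on the log2 scale. In the other direction Zfp239 went from 36.8 and 42.8 RPM to 10.6 RPM (-1.90, SE 0.39, adjusted p = 0.0197), Zfp91 from 70.7 and 60.9 RPM to 20.2 RPM (-1.70, SE 0.34, adjusted p = 0.0154) and Zfp334 from 99.3 and 66.3 RPM to 27.7 RPM (-1.57, SE 0.35, adjusted p = 0.0259).

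In new RNA at RC4 the members moved both ways, 19 called higher (8.15%, against 15% of all genes) and 19 lower (8.15%, against 13.2%), around a median within 0.01 of that of all genes. With library totals, where the median of all genes is at -0.33, the split became 9 higher and 39 lower. DESeq2 called 5 higher and 3 lower (6.21% and 4.93% of all genes), and edgeR without 4sU NT replicate 1 called 16 higher and 8 lower (11.5% and 9.21%). A pair of KRAB-like genes of chromosome 17 was among the highest of those called. Zfp945 had 31.1 and 33.8 RPM in NT and 146 RPM at RC4 (log2 change 2.17, SE 0.26, adjusted p = 0.00016), and Zfp760 had 37.6 and 67.7 RPM in NT and 196 RPM at RC4 (1.88, SE 0.29, adjusted p = 0.000911). Zfp703, a transcriptional co-repressor of the NET family, had 18 and 7.61 RPM in NT and 54.4 RPM at RC4 (2.16, SE 0.47, adjusted p = 0.00574). Among the lower, Zfp324 went from 35.1 and 31.4 RPM to 5.34 RPM (-2.62, SE 0.45, adjusted p = 0.00164). Zfp810 (11.4 and 13.5 RPM in NT) was unlisted at RC4, at least 9.37-fold lower, and Zfp41 was at least 5.99-fold lower. In old RNA at RC4, 37 members were called higher (15.9%, against 16.2%) and 16 lower (6.87%, against 11.7%), and library totals made this 22 higher and 35 lower, with the median of all genes at -0.45. Many of the lower calls rest on unlisted reads, since 15 tested members had no listed read at RC4. The 204 members listed in both groups gave 33 higher and 7 lower. Their median lay 0.36 above that of all genes, against 0.18 for all members tested. DESeq2 called 14 higher and 4 lower (8.42% and 3.48% of all genes).

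RNA-seq after 1 h of arsenite showed the family slightly raised as a whole. The median member was at a log2 change of 0.24 and the median gene at -0.01, and 214 of 301 members lay above the latter. Of the members, 21 were called higher (6.98%, against 3.7% of 11205 genes) and 1 lower (0.332%, against 0.884%). DESeq2 called 10 higher (2.12% of all genes) and none lower (0.464%), 8 members being lower at an unadjusted p under 0.05. KRAB-like members (median 0.26, 9 higher of 146) and the others (0.21, 10 higher and 1 lower of 152) gave like counts. Zscan and Zkscan genes had a median of 0.51 (2 higher of 18), Zbtb genes 0.05 (3 higher of 31), and the co-repressors -0.07 (none higher and 2 lower of 18).

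Zfp948, a KRAB-like gene with 15 fingers, had 57.5 and 69.1 RPM in NT, 196 RPM in AS and 158 RPM at RC4. Both treated values lay well above both NT values, with log2 changes of 1.63 in AS (SE 0.15, adjusted p = 1.7e-07) and 1.32 at RC4 (SE 0.16, adjusted p = 3.75e-07). In total RNA 3′READS this gene was listed in only 3 of 10 libraries, with at most 29 reads, so the rise has no counterpart there. Zfp1 had 8.81 and 6.19 RPM in NT and 20.6 RPM in AS (1.46, SE 0.26, adjusted p = 0.000939). Zfp367 had 4.99 and 6.8 RPM in NT, 14.8 RPM in AS and 31.1 RPM at RC4 (1.33, SE 0.25, adjusted p = 0.00161 and 2.40, SE 0.25, adjusted p = 4.51e-08). Zfp57, which protects imprinted methylation, had 10.4 and 9.52 RPM in NT, 23.5 RPM in AS (1.23, SE 0.24, adjusted p = 0.00197) and 7.91 RPM at RC4. The sole lower call, which DESeq2 did not make, was Zfp770, at 25.8 and 31.6 RPM in NT and 15.9 RPM in AS (-0.85, SE 0.22, adjusted p = 0.0254).

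At 4 h of recovery the same RNA-seq set showed the reverse for the family. The median member was at a log2 change of -0.51 while the median gene stood at -0.01, 208 of 301 members lay below it, and 100 were called lower (33.2%, against 24%) and 40 higher (13.3%, against 27.4%). Scaling by library totals moves the median of all genes to -0.81 and makes the member calls 14 higher and 210 lower, with the same distance between the medians. DESeq2 called 57 lower and 29 higher (16% and 20.7% of all genes). KRAB-like members lay lowest (median -0.71, 53 lower and 11 higher of 146) and the others higher (-0.35, 46 lower and 27 higher of 152). Members with 6 or more fingers had a median of -0.61, those with 1 to 5 a median of -0.07, Zbtb genes a median of 0.07 (9 lower and 11 higher of 31) and Zscan and Zkscan genes -0.12 (1 lower and 4 higher of 18). Only 290 members were listed in the RC4 library, against 302 to 308 in the others, and 14 tested members had no listed read there.

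Of the 18 co-repressors of the KRAB pathway 6 were called lower at RC4 (33.3%, against 24% of all genes) and 5 higher (27.8%, against 27.4%), with a median of 0.01, shares near those of all genes. The lower were Setdb1, the H3K9 methyltransferase brought in by TRIM28 (log2 change -1.70), Uhrf1 (-1.28), the HP1 genes Cbx5 (-0.89), Cbx3 (-0.85) and Cbx1 (-0.65), and Trim28 itself (-0.87). The higher were Morc2a (1.40), Chd3 (0.87), the SETDB1 partner Atf7ip (0.78), the histone deacetylase Hdac2 (0.70) and Pphln1 (0.45).

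Among the members that rose at RC4, Zfp703 had 3.27 and 2.01 RPM in NT, 6.05 RPM in AS and 27.3 RPM at RC4, a log2 change of 3.36 at RC4 (SE 0.30, adjusted p = 4.27e-09). Zfp622 had 120 and 129 RPM in NT, 199 RPM in AS and 504 RPM at RC4 (0.68 in AS, SE 0.14, adjusted p = 0.00559, and 2.02 at RC4, SE 0.14, adjusted p = 1.03e-10). Both genes rose from NT to AS and stood higher again at RC4. Zfp941 (2.71), Zfp13 (2.92) and Zfp459 (3.03) also passed the test but from at most 33 reads in an NT library. Zfp143, an activator of many promoters and of selenocysteine tRNA genes, went from 18.7 and 25.3 RPM to 34.7 RPM (0.66, SE 0.22, adjusted p = 0.0146).

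Of the members that fell, Zfp207 had 189 and 214 RPM in NT, 149 RPM in AS and 60.2 RPM at RC4, a log2 change of -1.74 at RC4 (SE 0.17, adjusted p = 2.23e-08). Zfp638, which silences retroviral DNA, went from 165 and 210 RPM to 80.3 RPM (-1.22, SE 0.17, adjusted p = 4.89e-06). Zfp445, which with Zfp57 maintains imprints, went from 116 and 148 RPM to 59.6 RPM (-1.14, SE 0.18, adjusted p = 1.48e-05). Zfp217, a co-repressor amplified in breast cancers, went from 34.4 and 33.7 RPM to 15.3 RPM (-1.15, SE 0.22, adjusted p = 0.000154), and Zfp106, an RNA-binding protein of the neuromuscular system, from 353 and 364 RPM to 253 RPM (-0.51, SE 0.15, adjusted p = 0.00648). In each of these 5 genes the RC4 value lay below both NT values. The 4 lowest called members by fitted value were unlisted at RC4: Zfp810 (4.72 and 4.13 RPM in NT) was at least 14.8-fold lower, Zfp579 at least 8.85-fold, Zfp41 at least 6.82-fold and Zfp930 at least 6.73-fold lower.

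Members that were low in Ft did not all fall at RC4. Zfp91 was at 173 and 197 RPM in NT and 194 RPM at RC4 (log2 change 0.07, SE 0.15, adjusted p = 0.713), Zfp281 at 51.8 and 56.1 RPM and 51.2 RPM (-0.07, SE 0.18, adjusted p = 0.753), and Zfp148 at 53.3 and 60.4 RPM and 59.1 RPM (0.06, SE 0.18, adjusted p = 0.807). Across 233 members the RNA-seq change at RC4 and log2(Ft/4sU) in NT were nearly unrelated (Pearson's r 0.10, Spearman's rho 0.03). The 151 members called lower in Ft had a median RNA-seq change of -0.40 (52 lower, 20 higher), and the 75 not called a median of -0.51 (25 lower, 12 higher).

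**Figure D3:**
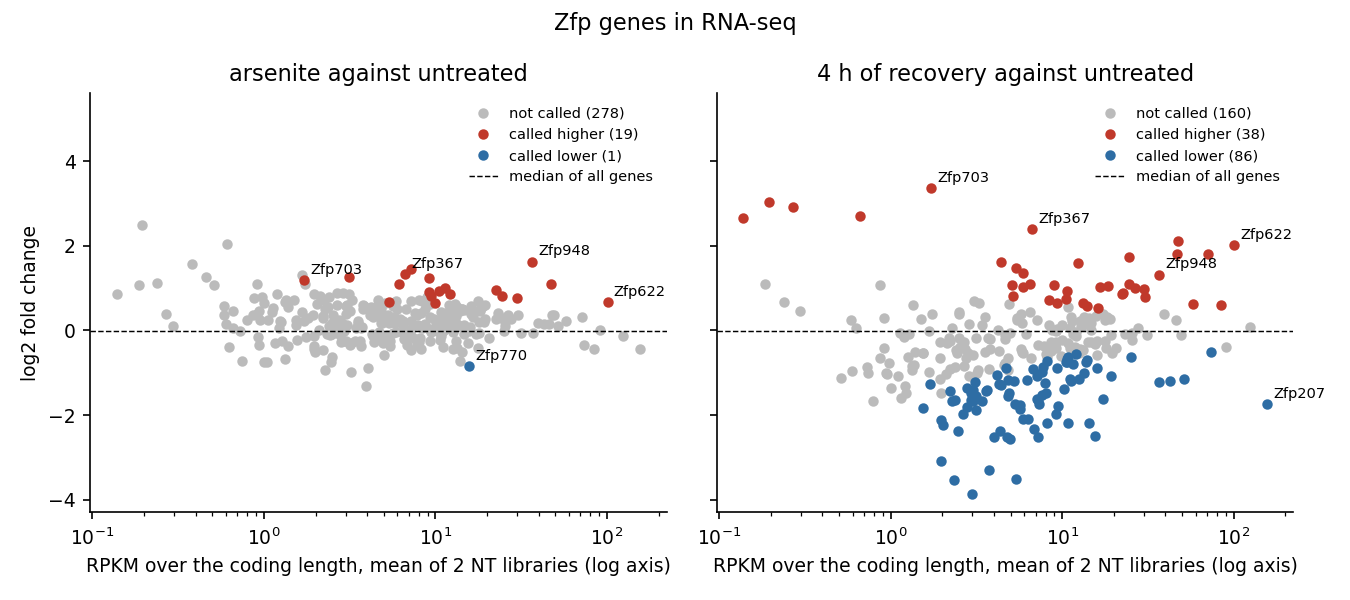
RNA-seq log2 fold change of Zfp genes (y axis) against their untreated level as RPKM over the coding length (x axis, log scale), under arsenite and at 4 h of recovery. Points are genes listed in both groups, coloured by call, and the dashed line is the median of all genes at -0.01. At recovery 86 of the genes plotted are called lower and 38 higher, and the lower calls lie along most of the range of levels.

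Total RNA 3′READS gave the arsenite direction again and not that of the recovery. In AS the member median lay 0.22 above that of all genes, and 148 of 193 members lay above the median of all genes. Within the 3 replicate sets (numbers 1, 2 and 4 of the labels) the member median moved by 0.18, 0.24 and 0.11 from NT to AS relative to all genes. No member was called by edgeR (0% lower and 0.128% higher among 9377 genes), with 13 members higher and none lower at an unadjusted p under 0.05 and 3 called higher by DESeq2. Without NT or AS of set 4, 3 members were called higher and none lower (1.22% and 0.19% of all genes, and 1.23% and 0.211%). Zfp655 came near: it had 72.9, 64.9 and 80.6 RPM in NT and 160, 160 and 92.6 RPM in AS (log2 change 0.94, SE 0.22, adjusted p = 0.215), with every AS value above every NT value.

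At RC4 the member median of total RNA lay 0.24 above that of all genes. Of 193 members, 8 were called higher (4.15%, against 5.82% of all genes) and 3 lower (1.55%, against 3.32%), and library totals, with the median of all genes at -0.23, gave 3 higher and 5 lower. The count rests on the NT libraries, with 1 higher and 1 lower without set 1 NT (3.51% and 1.74% of all genes), 1 and 2 without set 2 NT (3.09% and 1.32%), and 16 and 5 without set 4 NT (8.03% and 4.49%). Zfp655 (195 RPM at RC4, 80.6 RPM in NT of set 4, log2 change 1.62, SE 0.33, adjusted p = 0.0191) and Zfp945 (48.1 against 18 RPM, 1.52, SE 0.41, adjusted p = 0.0478) were higher, as Zfp945 was in new RNA. Zfp365, Zfp516 and Zfp652 were higher too, by 1.39, 1.32 and 1.32 on the log2 scale. Zfp341, Zfp445 and Zfp597 were called higher because the NT library of that set had no listed read, and were at least 1.70-fold, 2.45-fold and 1.70-fold higher. Zfp651 went from 36 to 6.1 RPM (-2.54, SE 0.49, adjusted p = 0.0153), Zfp672 was at least 3.40-fold lower and Zfp788 at least 1.49-fold lower. Later in recovery no member was called by edgeR. The member median lay 0.32 above that of all genes at RC8 (called higher 0.203% and lower 0.171% of all genes; 16 members higher and 2 lower at an unadjusted p under 0.05; 1 called by DESeq2), 0.10 above at RC12 (0.0427% and 0.0853%; 8 and 3; none by DESeq2) and 0.08 above at RC24 (0% and 0%; 7 and 10; none by DESeq2). Without NT of set 4, 3 members were higher and 1 lower at RC8 (2.29% and 1.2% of all genes) and 3 higher and none lower at RC12 (0.836% and 0.487%). Without the replicate block the member median at RC4 lay 0.14 below that of all genes and no member was called.

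The recovery sets could be laid side by side on the same genes, since the RNA-seq and total RNA libraries share no sample. Of 193 members tested in both, the median was -0.43 in RNA-seq and 0.24 in total RNA, and 65 were lower in the first and higher in the second, against 17 the other way, with 60 lower and 51 higher in both. Members listed in all groups (155) had medians of -0.25 and 0.27. Their changes still ran together across genes (Pearson's r 0.46, Spearman's rho 0.43). Of the 19 members lower in new RNA at RC4, 15 (78.9%) were among the 100 lower in RNA-seq (15% of these), and 0 were among the 40 higher. Of the 19 higher in new RNA, 6 (31.6%) were among the 40 higher (15%), namely Zfp142, Zfp326, Zfp655, Zfp703, Zfp868 and Zfp945. Another 3 (15.8%), Zfp28, Zfp369 and Zfp652, went the other way and were among the 100 lower. Of all 301 members tested in RNA-seq, 33.2% were lower and 13.3% higher, and the overlap over all genes was not computed. Zfp652 and Zfp445 were called lower in RNA-seq and higher in total RNA.

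TIA1 pull-down enriched the family in the median, though not on every chromosome, and few members singly. Members took 6903 and 7302 reads per 1000000 gene reads in the TIA1 libraries of NT and 4833 and 4219 in their inputs, and 6911 and 7588 against 5284 and 5435 under arsenite. The member median of log2(TIA1/input) lay 0.54 above that of all genes in NT and 0.28 above it in AS. Relative to all genes it moved from input to TIA1 by 0.23 and 0.65 in NT replicates 1 and 2, and by 0.33 and 0.25 in AS. Between chromosomes the member medians in NT were 0.004 on 7, 1.18 on 17, 1.12 on 13, -0.11 on 8 and 0.77 on the rest. In NT 18 of 207 members were called higher (8.7%, against 9.4% of 9255 genes) and 7 lower (3.38%, against 10.2%), and in AS 9 were higher (4.35%, against 8.22%) and 6 lower (2.9%, against 8.92%). With library totals the splits were 22 higher and 4 lower, and 13 higher and 4 lower, with the medians of all genes at 0.13 and 0.23. DESeq2 called 29 higher and 11 lower in NT (12.5% and 13.7% of all genes) and 16 and 7 in AS (11.1% and 11.5%). These counts rest on single libraries, in all genes as in the members. In NT 4 members were higher and 1 lower without input replicate 2 (2.69% and 3.79% of all genes), 9 and 5 without input replicate 1 (5.59% and 6.72%) and 11 and 5 without TIA1 replicate 2 (7.02% and 8.83%). In AS the number of calls fell whichever library was left out, with a difference of medians of 0.23 to 0.29. Without the replicate block 4 were higher and 2 lower in NT (2.01% and 1.98%) and 2 higher in AS (0.249%). KRAB-like members gave 3 of the higher calls in NT (of 88) and none of the lower, and Zbtb genes had 5 of 20 higher and a median of 1.22. The change of TIA1/input from NT to AS had a member median of -0.15, and edgeR called no gene for it (0% of 9255; 3 members higher and 4 lower at an unadjusted p under 0.05; no member by DESeq2). The inputs themselves, AS against NT, had a member median 0.27 above that of all genes and no member called (higher 0.14% and lower 0% of all genes; 4 and 2 at an unadjusted p under 0.05; none by DESeq2).

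Zfp451, a SUMO ligase, had 263 and 225 RPM in TIA1 and 31.6 and 18.8 RPM in input of NT, a log2 ratio of 3.29 (SE 0.34, adjusted p = 0.000948), and 128 and 144 RPM against 31.2 and 22.8 RPM in AS (2.36, SE 0.34, adjusted p = 0.00244). Zfp597 had 224 and 193 RPM against 39.6 and 22.7 RPM in NT (2.75, SE 0.35, adjusted p = 0.00151) and a ratio of 1.59 in AS (adjusted p = 0.0142). Zfp148 had 197 and 170 RPM against 42.9 and 23.7 RPM in NT (2.49, SE 0.34, adjusted p = 0.00182) and 2.85 in AS (SE 0.35, adjusted p = 0.00164). Pull-down and input did not overlap in these genes in either condition. Zfp462 (3.07), Zfp91 (2.59) and Zfp369 (2.54) were also higher in NT, Zfp369 reached 4.02 in AS, and Zfp318, which shapes IgD expression in B cells, was at least 7.05-fold higher in NT, where its inputs had no listed read. Zfp329 was at least 5.15-fold higher in AS. Zfp281 (25.7 and 7.49 RPM in TIA1, 15.1 RPM and unlisted in input) did not pass, at 1.41 (SE 1.21, adjusted p = 0.451).

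At the other end, Zfp593 had 20.9 and 19.9 RPM in TIA1 and 115 and 149 RPM in input of NT (-2.70, SE 0.37, adjusted p = 0.00183) and -2.22 in AS (SE 0.36, adjusted p = 0.0038). Zfp444 was at -2.02 in NT (SE 0.38, adjusted p = 0.00576) and -1.29 in AS (adjusted p = 0.0365), Zfp524 at -1.83 and -1.62 (adjusted p = 0.0275 and 0.0483), and Zfp771 at -2.46 in NT (SE 0.73, adjusted p = 0.0392). The abundant Zfp207 had 88.2 and 108 RPM in TIA1 and 233 and 264 RPM in input (-1.34, SE 0.26, adjusted p = 0.00698). In AS Zfp933 (-3.08, adjusted p = 0.0068) and Zfp622 (-1.45, adjusted p = 0.0292) were lower as well. Of the 18 members higher in NT, 7 were also higher in AS (38.9% and 77.8% of the lists), and of the 7 lower, 4 were also lower (57.1% and 66.7%). Of all 207 members tested, 4.35% were higher and 2.9% lower in AS, and the overlap over all genes was not computed.

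Members with more TIA1 signal tended to have a lower Ft/4sU ratio, in libraries that share no sample. Across 200 members Pearson's r was -0.31 and Spearman's rho -0.33. Of the 18 members higher in TIA1, 12 (66.7%) were among the 151 lower in Ft (64.8% of all tested members were), and of the 7 lower in TIA1, 3 (42.9%) were among the 7 higher in Ft, namely Zfp428, Zfp444 and Zfp593. Of all tested members 3% were higher in Ft, and the overlap over all genes was not computed. The TIA1 ratio rose with 3′UTR length across 207 members (rho 0.29) as across 9080 genes (rho 0.40).

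**Figure D4:**
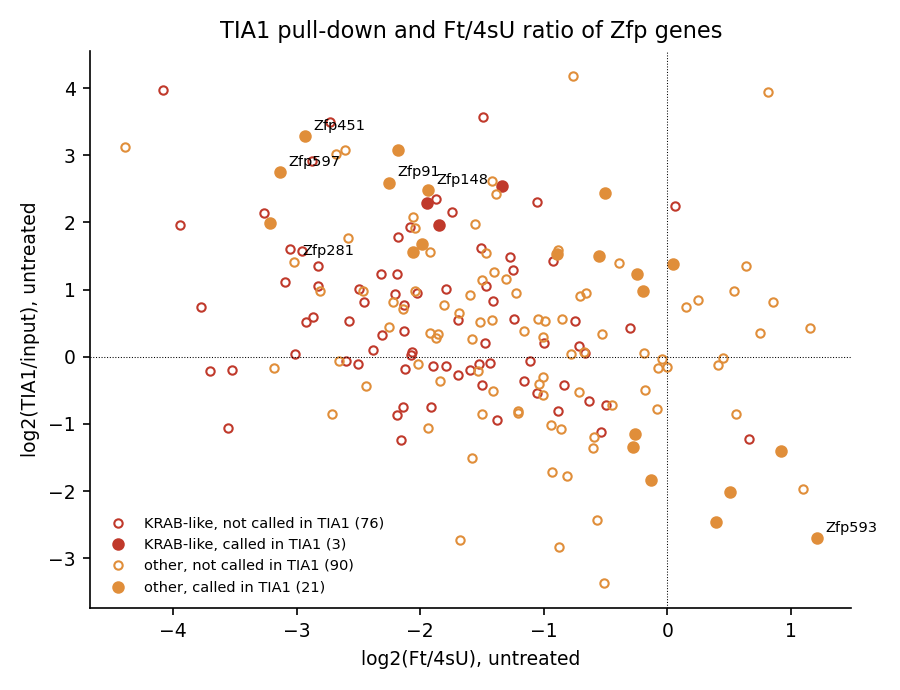
Log2(TIA1/input) (y axis) against log2(Ft/4sU) (x axis) of the 190 Zfp genes listed in all 4 groups, both in untreated cells. Points are genes, red for KRAB-like and orange for the others, filled where called in TIA1 against input. Zfp593 lies at 1.21 and -2.70 at the lower right, and Zfp451 and Zfp597 lie at the upper left.

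In C2C12 cells the family was quiet after arsenite and low at 4 h of recovery. Members took 4006 and 4226 reads per 1000000 cytoplasmic gene reads in MB NT, 4003 in AS and 3125 at RC4, and 4029 and 4305 in MT NT, 4461 in AS and 3414 at RC4. Both RC4 libraries lay below all 3 others of their state. The member median less that of all genes was -0.02 in MB and 0.12 in MT in AS, and edgeR called none of the 133 members tested in either (MB higher 0.192% and lower 0% of 8842 genes, MT 0.181% and 0.0113%; at an unadjusted p under 0.05, 3 members higher and 1 lower in MB and 5 and 1 in MT; none by DESeq2). Without MB NT replicate 1, 7 members were higher and 2 lower in MB in AS (7.89% and 4.74% of all genes), and without replicate 2, 3 were higher (2.58%). At RC4 the differences of medians were -0.60 in MB and -0.49 in MT. In MB 1 member was called higher (0.752%, against 2.38%) and 2 lower (1.5%, against 1.53%), and in MT 2 were higher (1.5%, against 2.09%) and 1 lower (0.752%, against 0.679%). With library totals MB gave 8 calls, all lower, and the medians of all genes were -0.36 in MB and -0.21 in MT. The MB values rest on low counts and on the NT pair. In MB 23 tested members had no listed read at RC4, members listed in both groups gave -0.22, and the 41 with a mean of at least 50 reads gave -0.00 (MT -0.16). Without MB NT replicate 1, 12 members were called higher and 36 lower (12.9% and 10.9% of all genes), and without replicate 2, 8 higher and 29 lower (9.1% and 9.95%), with a difference of medians of -0.40 in both cases. Without either MT NT library no MT member was called at RC4, and DESeq2 called 1 MB member, which was lower, and no MT member.

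Zfp703 had 17.2 and 20.7 RPM in MT NT, 31 RPM in AS and 92.7 RPM at RC4 (log2 change 2.28 at RC4, SE 0.42, adjusted p = 0.0415). In MB it had 15 and 33.4 RPM in NT, 30.1 RPM in AS and 84.4 RPM at RC4, which did not pass (1.80, SE 0.43, adjusted p = 0.0675). The RC4 value lay above all others in both states, as in RNA-seq and in new RNA of NIH3T3 cells. Zfp367 had 6.97 and 8.6 RPM in MT NT and 52.6 RPM at RC4 (2.74, SE 0.42, adjusted p = 0.0244), and Zfp622 had 99.4 and 120 RPM in MT NT and 227 RPM at RC4 (1.05, SE 0.25, adjusted p = 0.0821). Zfp324 was unlisted at RC4 in both states, at least 3.26-fold lower in MB and 5.20-fold in MT. Zfp809 (25.5 and 37.2 RPM in MB NT) was unlisted at RC4 in MB, at least 9.59-fold lower, while in MT it stayed at 13.4 RPM against 17.6 and 25.4 RPM in NT. The third MB call was Zfp954 (1.38, SE 0.26, adjusted p = 0.0422), named because it was the only higher one.

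Differentiation moved members in both directions. Total RNA of myotubes against myoblasts had 49 of 207 members higher (23.7%, against 32.4% of 10154 genes) and 32 lower (15.5%, against 29.4%), DESeq2 called 31 and 16 (24.4% and 21.4% of all genes), and library totals made this 40 and 41, with the median of all genes at -0.11. Members took 5555 and 5569 reads per 1000000 gene reads in MT and 5531 and 5501 in MB, nearly the same, and in bulk RNA fewer cells of a state and less RNA per cell cannot be told apart. KRAB-like members had 23 higher and 8 lower of 90, the others 26 and 24 of 117, and the co-repressors 3 and 8 of 17, with Dnmt1, the maintenance DNA methyltransferase (-2.21), Trim28 (-1.81) and Cbx3 (-1.36) among the lower. Zfp568, a KRAB protein that represses a placental Igf2 promoter, had 4.5 and 4.09 RPM in MB and 23.7 and 28.7 RPM in MT (log2 change 2.61, SE 0.28, adjusted p = 1.13e-07). Zfp945 had 4.5 and 9.45 RPM in MB and 37.6 and 49.8 RPM in MT (2.60, SE 0.26, adjusted p = 3.15e-08), Zfp760 was at 2.54 and Zfp282 at 2.44. Zfp106 had 19 and 21.7 RPM in MB and 66.1 and 64.4 RPM in MT (1.67, SE 0.17, adjusted p = 3.02e-08). Zfp7 fell from 50.5 and 61.6 RPM to 17 and 17 RPM (-1.73, SE 0.18, adjusted p = 6.4e-08), with Zfp820 (-1.80), Zfp41 (-1.79) and Zfp395 (-1.72) near it. The states did not overlap in any of the genes given with their values. Zfp521 was not listed in C2C12 total RNA.

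**Figure D5:**
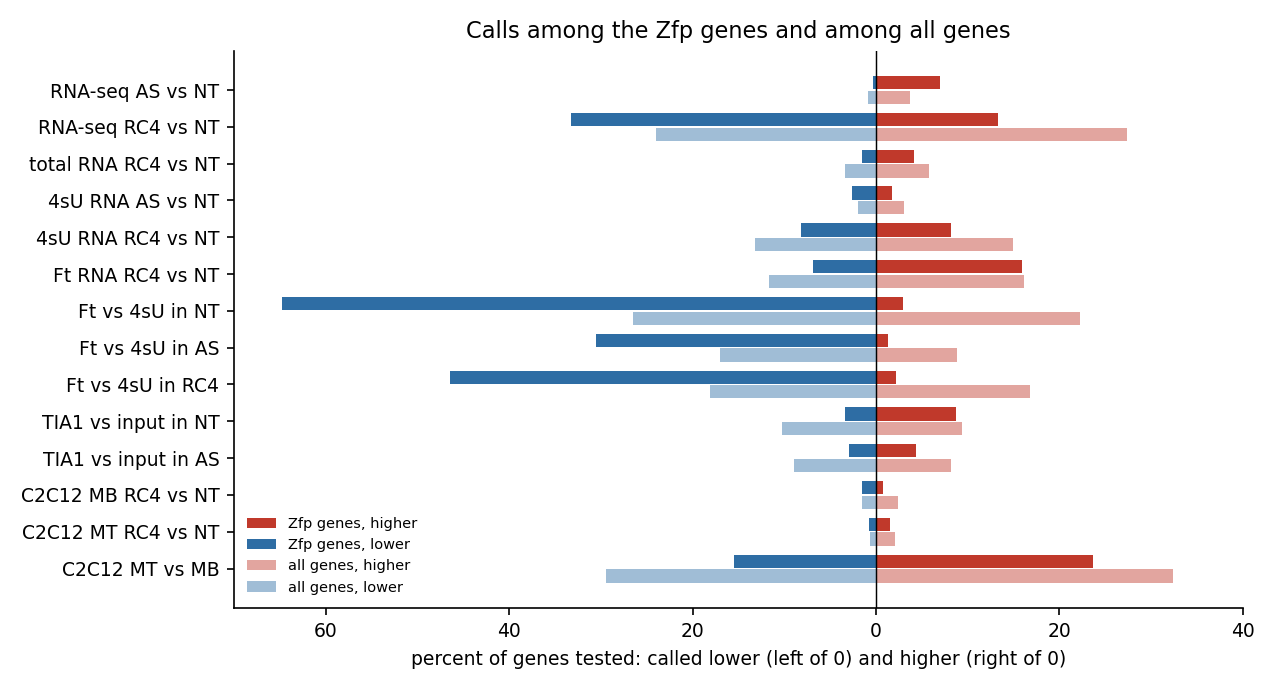
Percent of genes tested that were called higher (right of 0) or lower (left of 0) in each comparison (y axis), dark for Zfp genes and pale for all genes. The longest bar is 64.8% of the Zfp genes lower in Ft than in 4sU in untreated cells, against 26.5% of all genes.

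The use of alternative PASs could be followed in few members. The relative expression difference (RED) is the change of log2(distal/proximal) between 2 PASs of a gene, negative for a shift to the proximal PAS. The 2 main PASs in the last annotated exon or past it were taken, some of which can lie in coding sequence. RED was computed where all 4 values exceed 5 reads. In total RNA after arsenite the member median RED was 0.11 over 52 members in set 1, -0.06 over 78 in set 2 and 0.03 over 15 in set 4, against -0.07, -0.06 and -0.10 for all genes. Signs differed between sets in Zfp706 (0.51, -0.75 and -1.26) and in Zfp384, the nuclear matrix protein NMP4 (0.78, 0.75 and -0.55). Zfp592 was negative in each set, at -0.72, -0.09 and -0.82. In edgeR's differential usage test none of the 10 members tested was called (0% of 1620 genes called in either direction), and none had an unadjusted p under 0.05 while 44 genes did. The largest RED values came from 1 or 2 sets: Zfp398 at 2.26 (set 2), Zfp810 at 1.89 (set 2) and Zfp397 at 1.16 (median of sets 1 and 2) on the positive side, and Zfp81 at -1.78 (set 1), Zfp532 at -1.68 (set 1) and Zfp84 at -1.56 (set 2) on the negative side. Zfp398 rests on 11 to 40 reads per PAS. In new RNA the member median RED was -0.34 over 79 members in AS and -0.61 over 102 at RC4, against -0.40 and -0.43 for all genes, and it was below 0 in 56 of 79 and 81 of 102 members, against 71.73% and 73.56% of all genes. Between fractions in NT (4sU against Ft) it was 0.21 over 68 members, against 0.42 for all genes.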

How the data were processed

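The authors trimmed reads with cutadapt and aligned 3′READS reads with Bowtie2 and RNA-seq reads with STAR to mm9. Of the 3′READS reads they kept those with a mapping quality of at least 10. The deposited 3′READS values are counts of reads at each PAS and the deposited RNA-seq values are counts of reads in coding sequence per gene, both listed from 5 reads up. PAS positions within 24 nt on a strand were joined, 83590 clusters in all, and assigned to mm9 genes, coding and long non-coding. Of the clusters, 429 were left out as ambiguous. Each set was fitted with edgeR 4.0.16 in R 4.3.3 (quasi-likelihood test, median ratio factors, genes with a mean of at least 10 reads, Benjamini-Hochberg adjustment), and 25 comparisons were made. The adapters carried random nucleotides, but the paper describes no use of them to remove duplicate reads. Folds computed at 5 reads per library allow for neither duplicates nor counting error. Total RNA was fitted with the replicate set as a block, and TIA1 with input by replicate number: same-numbered libraries deviated together in total RNA (correlations of 0.79 to 0.858) and in the TIA1 set (0.216 to 0.445). 4sU and Ft of the same number come from the same culture (correlation 0.156), and C2C12 total RNA numbers did not pair (0.0498). Isoform usage was tested with edgeR's diffSpliceDGE. The fits were tested on simulated counts. DESeq2 1.42.0, TMM factors, no filter, a mean of 50 reads, library totals, PASs inside annotated genes, fits with and without the block, an adjustment for transcript uridines, and leaving out each replicate were the alternatives, of which the mean of 50 reads and the library totals were added after seeing the data. Genes were named by rule: the largest and smallest changes among calls, the most abundant members, and members of known function. Genes named outside the rule were chosen after their values were seen. The members, lists and tests were chosen with earlier results of these data known. Fingers were counted by the pattern of C2H2 spacing, and a KRAB-like stretch by the letters of the KRAB A box with 1 mismatch allowed, in proteins translated from the mm9 coding sequence.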

Additional observations from a re-analysis of the deposited data

Results flagged for a closer look

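In NIH3T3 total RNA at RC4 the median of the Zfp genes less that of all genes was 0.24, while in C2C12 cytoplasmic RNA at RC4 it was -0.60 in myoblasts and -0.49 in myotubes. These were set side by side because the sign differs, and the difference itself was not tested. It is not 1 sign per cell line: NIH3T3 RNA-seq at RC4 gave -0.50, and NIH3T3 total RNA without the replicate block gave -0.14. The RNA fraction and the cell line differ together and cannot be told apart here, and with a mean of at least 50 reads the C2C12 values were -0.00 and -0.16.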

How the results depend on the processing

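Medians below are those of the Zfp genes less that of all genes (log2). Counts of calls below are given without the share of all genes. They show how the calls move with the processing and are no result about the family. Apart from leaving out replicates, 138 of 170 medians moved by less than the residual SD and 133 of 168 counts of calls stayed within 1.5 times. DESeq2 called 10 members in RNA-seq AS, 86 in RNA-seq RC4, 3 in total RNA AS, 1 at RC8, 1 in 4sU AS, 8 in 4sU RC4, 1 in Ft AS, 18 in Ft RC4, 23 in Ft/4sU AS, 44 in Ft/4sU RC4, 40 in TIA1 NT, 23 in TIA1 AS, 1 in MB RC4, 0 in MT RC4 and 47 in MT against MB (median 0.01). PASs inside annotated genes gave 4 calls in total RNA RC4, 0 in Ft AS (median 0.27), and medians of 0.48 for Ft/4sU AS minus NT, 0.41 for TIA1 NT and 0.05 for MT AS. TMM gave 5 calls in Ft AS. The uridine adjustment gave -1.35, -0.68 and -1.13 for Ft/4sU in NT, AS and RC4. Library totals gave 224 calls in RNA-seq RC4, 17 in 4sU AS, 6 in Ft AS, 8 in MB RC4 and 5 in MT RC4, counts that include the shift of all genes. A mean of 50 reads gave medians of -0.40 in RNA-seq RC4, 0.16 in total RNA AS (2 calls), 0.27 at RC8, -0.26 in 4sU AS, 0.05 in 4sU RC4, 0.32 in Ft AS (6 calls), 0.36 in Ft RC4, -1.54 and -1.46 for Ft/4sU in NT and RC4, -0.00 in MB RC4, 0.21 in MT AS, -0.16 in MT RC4 and 0.06 in MT against MB. No filter gave 3 calls in total RNA RC4, 6 in Ft AS (median 0.19), 1 in MB RC4 and 1 in MT RC4 (median -0.60), and medians of 0.00 in Ft RC4, -1.60 and -1.41 for Ft/4sU in NT and RC4 and 0.47 for Ft/4sU AS minus NT. The causes were not tested.

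Without the replicate block, total RNA gave -0.14 at RC4 (0 calls), -0.26 at RC12 and -0.25 at RC24, the reverse of the values with it, and 0.01 at RC8, and TIA1 called 6 members in NT and 2 in AS. With the replicate block, Ft/4sU had 113 calls in AS, the changes of Ft/4sU had 28 and 25, and MT against MB had a median of 0.01. The block changed no other count by over 1.5 times.

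Leaving out 1 replicate gave medians of 0.19 to 0.29 in RNA-seq AS, -0.47 to -0.42 in RNA-seq RC4, 0.13 to 0.29 in total RNA AS, 0.20 to 0.33 at RC4, 0.30 to 0.39 at RC8, 0.03 to 0.16 at RC12, 0.06 to 0.20 at RC24, -0.19 to -0.14 in 4sU AS, -0.06 to -0.02 in 4sU RC4, 0.35 to 0.37 in Ft AS, 0.15 to 0.26 in Ft RC4, -1.57 to -1.44 for Ft/4sU in NT, 0.43 to 0.61 and 0.08 to 0.14 for its changes in AS and RC4, 0.39 to 0.59 and 0.23 to 0.29 for TIA1 in NT and AS, -0.39 to 0.03 for TIA1/input AS minus NT (0.03, the reverse sign, without input NT replicate 2), 0.20 to 0.41 in input AS, -0.00 to 0.02 in MB AS, -0.40 in MB RC4, 0.08 to 0.23 in MT AS, -0.51 to -0.34 in MT RC4 and -0.01 to 0.06 in MT against MB. Counts of calls ranged from 0 to 3 in total RNA AS, 2 to 21 at RC4, 0 to 4 at RC8, 0 to 3 at RC12, 6 to 7 in 4sU AS, 24 to 32 in 4sU RC4, 14 to 17 in Ft AS, 50 to 64 in Ft RC4, 135 to 157 for Ft/4sU in NT, 0 to 7 and 0 to 6 for its changes, 5 to 22 and 2 to 6 for TIA1 in NT and AS, 3 to 9 in MB AS, 37 to 48 in MB RC4, 0 in MT RC4 and 67 to 74 in MT against MB. A lone sample is then assumed to vary like the other groups. With 1 NT library left, RNA-seq has no residual degrees of freedom and its medians carry no test, and conditions with a single library were not left out. Depth limits members near 5 reads per library.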
